A study of Canis lupus familiaris with 5 samples.

Results

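The leukocyte adhesion molecules of endothelium examined here are 5 genes, VCAM1, ICAM1, SELE, SELP and ACKR1, taken by name from the 35531 named features measured in nuclei of canine cephalic vein. All 5 were present in the feature tables and all 5 were found in a RefSeq gene table of the dog assembly UU_Cfam_GSD_1.0. The veins came from mongrel dogs of 25 kg, and every library used here is labelled male. The grafted library was vein of dog 1 taken 24 h after it had been sewn in as a bypass of the carotid artery (n = 1 library). The distended libraries were vein of dogs 1 and 2 filled under pressure with saline containing papaverine and bivalirudin during a harvest of about 30 min (n = 2), and the control libraries were undistended segments of the same 2 dogs (n = 2). The graft had itself been distended, and its dog received systemic bivalirudin before the anastomoses were made.

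Leukocytes leave the blood by rolling on selectins, stopping on integrin ligands and crossing the vessel wall, mostly in venules. P-selectin, encoded by SELP, is stored in Weibel-Palade bodies of endothelial cells and in platelets, whereas E-selectin, encoded by SELE, and the integrin ligands ICAM1 and VCAM1 are made after inflammatory cytokines activate transcription through NF-kB. ACKR1 is an atypical chemokine receptor of venular endothelium and red cells that binds chemokines without classical signalling.

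The libraries held 410604 to 11302558 UMIs in 242 to 2705 barcodes, and 6855 nuclei with at least 100 detected genes were kept. The median nucleus held 2351 UMIs in the graft, 548 and 498 in distended dogs 1 and 2, and 428 and 275 in control dogs 1 and 2, leaving out 2 features. Those 2, LOC119877774 and LOC119877775, took 2.96% of all UMIs in the graft, 38.4% and 26.5% in distended dogs 1 and 2, and 70.2% and 61.3% in control dogs 1 and 2. Levels over all nuclei are therefore given as CPM with the UMIs outside these features as the total. Endothelial-like nuclei numbered 928 in the graft, 562 and 53 in distended dogs 1 and 2, and 635 and 503 in control dogs 1 and 2. Fibroblast-like nuclei numbered 767, 1210, 9, 49 and 386 in the same order of libraries. Control dog 1 shared 3 barcodes with the graft, distended dog 1 shared 1 with the graft and 1 with control dog 2, and the other pairs shared 0. Fewer cells of a type and less RNA per cell cannot be told apart in sums over all nuclei, and the graft is a single library, so that its difference from the other groups has no replicate check.

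E-selectin was low in control dog 1 and high in control dog 2. SELE had 6955 UMIs in the graft, 61 and 37 in distended dogs 1 and 2, and 3 and 177 in control dogs 1 and 2. As levels these were 638 CPM in the graft, 40.6 and 132 in distended dogs 1 and 2, and 5.98 and 521 in control dogs 1 and 2. The graft stood above every other library, but control dog 2 lay close below it and above both distended veins, so distended and control libraries overlapped.

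SELP, the selectin of storage granules, had 7421 UMIs in the graft, 47 and 123 in distended dogs 1 and 2, and 33 and 128 in control dogs 1 and 2. It stood at 681 CPM in the graft, 31.3 and 439.8 in distended dogs 1 and 2, and 65.7 and 376 in control dogs 1 and 2. Both libraries of dog 2 lay above the control and distended libraries of dog 1. In distended dog 2 a single nucleus held 65 of the 123 SELP UMIs.

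The integrin ligands had their highest level in an undistended vein. VCAM1 had 387 UMIs in the graft, 41 and 11 in distended dogs 1 and 2, and 9 and 107 in control dogs 1 and 2, or 35.5, then 27.3 and 39.3, then 17.9 and 315 CPM. ICAM1 had 2647 UMIs in the graft, 358 and 60 in distended dogs 1 and 2, and 60 and 468 in control dogs 1 and 2, or 243, then 238 and 215, then 119.5 and 1376 CPM. For both genes control dog 2 lay above every other library and control dog 1 below every other library.

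ACKR1 had the most UMIs of the 5 genes in the graft, in distended dog 2 and in control dog 1. It had 20735 UMIs in the graft, 98 and 415 in distended dogs 1 and 2, and 115 and 11 in control dogs 1 and 2, or 1902, then 65.3 and 1484, then 229 and 32.3 CPM. Control dog 2, which was high for the other 4 genes, was lowest for this one. In distended dog 2, 1 nucleus held 341 of the 415 UMIs, and without it 74 remained.

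**Figure D1:**
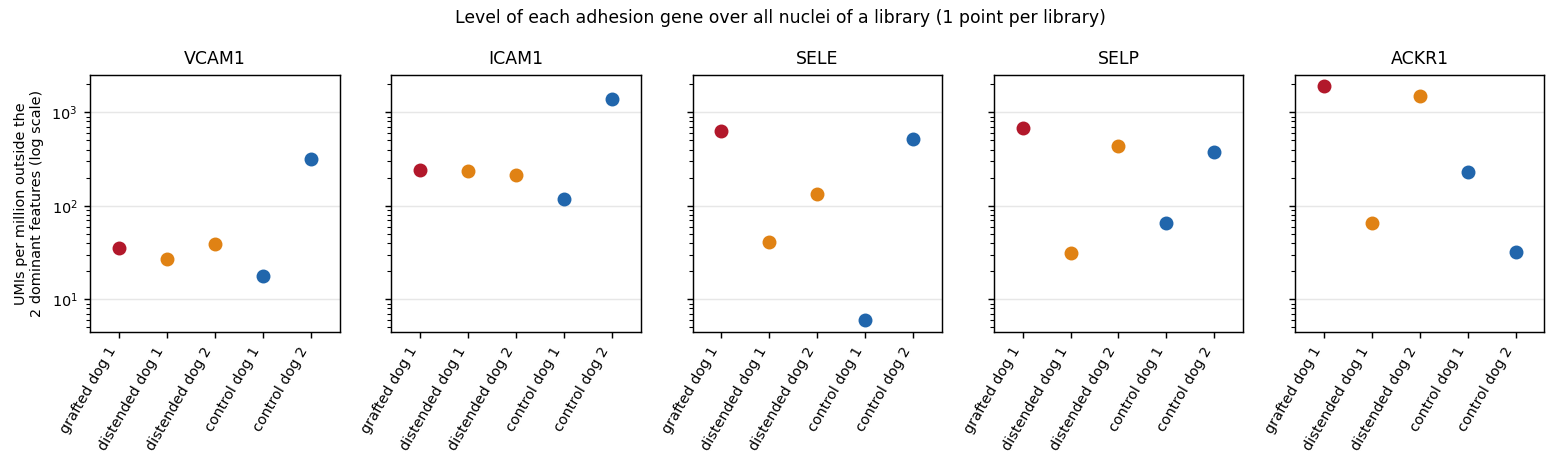
CPM with UMIs outside the 2 dominant features as the total (log axis) of each gene over all kept nuclei, 1 point per library, in the grafted, distended and control veins. VCAM1 and ICAM1 stand highest in control dog 2 (315 and 1376), SELE, SELP and ACKR1 in the graft (638, 681 and 1902).

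Summed over all nuclei, none of the 5 genes passed edgeR's quasi-likelihood test. The single grafted library took its spread from the other groups. In grafted against distended vein 0 of 13170 genes were called (0%), with 725 at an unadjusted p under 0.05 and 31 called by DESeq2. In grafted against control vein 0 of 13170 were called (0%), with 1162 at an unadjusted p under 0.05 and 117 called by DESeq2. In distended against control vein 0 of 13170 were called (0%), with 186 at an unadjusted p under 0.05 and 1 called by DESeq2. For ACKR1 the log2 difference was 3.71 in grafted against control vein (SE 1.56, edgeR adjusted p 0.56). In distended against control vein it was 2.42 (SE 1.37, adjusted p 1.0), and it turned to -0.998 when distended dog 2 was left out. The grafted against control value was called in 3 of 9 alternatives: with distended dog 1 left out (adjusted p 0.024), with distended dog 2 left out (adjusted p 0.028) and with no filter on low counts (adjusted p 0.034). SELE stood at 2.87 (SE 1.60, adjusted p 0.95) in grafted against distended vein. Without distended dog 2, ACKR1 and SELP were higher in the graft than in the remaining distended library, at log2 fold changes of 4.72 and 4.3. These values compare 1 grafted with 1 distended library, not the conditions.

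Endothelial-like nuclei, named from a list of 20 endothelial markers that holds none of the 5 genes, held from 2.65% (ACKR1 in distended dog 2) to 100% (SELE in control dog 1 and ACKR1 in control dog 2) of a gene's UMIs in a library. In the graft they held 57.6% of VCAM1, 49.9% of ICAM1, 42.2% of SELE, 38.6% of SELP and 4.68% of ACKR1 UMIs. The class left out cluster 7, which stayed unnamed although all 20 markers were detected in it. The summed level of those markers in the class was 8658 CPM in the graft, 15811 and 9749 in distended dogs 1 and 2, and 15034 and 14017 in control dogs 1 and 2. Different clusters made up the class in different groups. Cluster 16 held 925 of its 928 nuclei in the graft, clusters 2 and 3 held 250 and 190 of 562 in distended dog 1, cluster 0 held 549 of 635 in control dog 1, and clusters 0 and 3 held 139 and 342 of 503 in control dog 2. Cluster 3 was led by the stress response genes FOSB, ATF3 and JUN among others. In control dog 2 it held 113 of 128 SELP UMIs, with 1.35 SELE UMIs per SELP UMI and 0.420 SELP UMIs per ICAM1 UMI. In control dog 1 it held 27 nuclei. The part of this make-up in the difference between the controls was not tested. The share of nuclei with at least 1 UMI was larger in endothelial-like than in fibroblast-like nuclei in 23 of 25 pairs of gene and library. The 2 exceptions were VCAM1 and ICAM1 in distended dog 1. The pairs of distended dog 2 and control dog 1 rest on 9 and 49 fibroblast-like nuclei, all without a UMI of any of the 5 genes. Any positive endothelial-like nucleus set the order of those pairs, so they do not compare the classes.

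SELP was seen in the largest share of grafted endothelial-like nuclei, 57.2% (exact 95% interval 54.0 to 60.4). It was seen in 6.41% (4.53 to 8.76) and 20.8% (10.8 to 34.1) in distended dogs 1 and 2, and in 0.787% (0.256 to 1.83) and 14.9% (11.9 to 18.3) in control dogs 1 and 2. Fibroblast-like nuclei, which should lack it, stood at 2.35% in the graft, 0 of 1210 nuclei in distended dog 1 (which allows up to 0.248%), 0 of 49 in control dog 1 (up to 6.12%) and 0.259% in control dog 2. The median depth outside the 2 features was 3990.5 UMIs in endothelial-like and 1824 in fibroblast-like nuclei of the graft, 665 and 510 in distended dog 1, 434 and 151 in control dog 1 and 314 and 245 in control dog 2. The share of SELP was thus above the fibroblast-like share in the graft, distended dog 1 and control dog 2, whereas the 49 shallow fibroblast-like nuclei of control dog 1 allow no such comparison.

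SELE was detected in 45% (41.8 to 48.3) of endothelial-like nuclei of the graft, in 2.85% (1.64 to 4.58) and 3.77% (0.460 to 13) in distended dogs 1 and 2, and in 0.315% (0.0382 to 1.13) and 8.55% (6.26 to 11.3) in control dogs 1 and 2. The fibroblast-like share was 6.13% in the graft, 0.0826% in distended dog 1 and 0.777% in control dog 2. An endothelial-like nucleus positive for SELE held a mean of 7.03 UMIs in the graft, 3.44 and 3.00 in distended dogs 1 and 2, and 1.5 and 3.74 in control dogs 1 and 2, where dog 1 had 2 such nuclei. Nuclei positive for SELP held 5.40 UMIs in the graft, 1.19 and 1.09 in distended dogs 1 and 2, and 1.20 and 1.67 in control dogs 1 and 2.

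ICAM1 was not restricted to endothelial-like nuclei. It was detected in 44.1% (40.8 to 47.3) of them in the graft, 13% (10.3 to 16.1) and 13.2% (5.48 to 25.3) in distended dogs 1 and 2, and 5.35% (3.74 to 7.40) and 34.8% (30.6 to 39.1) in control dogs 1 and 2. In fibroblast-like nuclei the share was 14.1% (11.7 to 16.8) in the graft, 15.4% (13.4 to 17.5) in distended dog 1 and 22.8% (18.7 to 27.3) in control dog 2. In distended dog 1, 235 of 358 ICAM1 UMIs lay in fibroblast-like and 96 in endothelial-like nuclei. In control dog 2 the split was 135 and 322 of 468.

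VCAM1 was seen in the smallest share of endothelial-like nuclei of the 5 genes in the graft and both distended veins, but not in the controls. It was detected in 10.5% (8.56 to 12.6) of endothelial-like nuclei of the graft, in 2 of 562 and 1 of 53 nuclei in distended dogs 1 and 2, and in 4 of 635 and 46 of 503 in control dogs 1 and 2. In distended dog 1 the gene was instead seen in 32 of 1210 fibroblast-like nuclei, 2.64% (1.82 to 3.71), which held 37 of its 41 UMIs. Fibroblast-like shares in the graft and in control dog 2 were 1.17% and 0.777%.

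ACKR1 was detected in 53.8% (50.5 to 57.0) of endothelial-like nuclei of the graft, in 7.47% (5.44 to 9.97) and 15.1% (6.75 to 27.6) in distended dogs 1 and 2, and in 2.68% (1.57 to 4.25) and 2.19% (1.10 to 3.88) in control dogs 1 and 2. In fibroblast-like nuclei it was seen in 10.2% in the graft, in 1 of 1210 nuclei in distended dog 1 and in none of 386 in control dog 2 (up to 0.777%). Of the 23 endothelial-like nuclei of cluster 1 in distended dog 1, 13 held ACKR1, with 38 of that library's 98 UMIs. Lymphatic endothelial-like nuclei held no UMI of any of the 5 genes, in 119 nuclei of distended dog 1 (up to 2.52%), 31 of control dog 2 and 3 each of the graft and control dog 1.

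**Figure D2:**
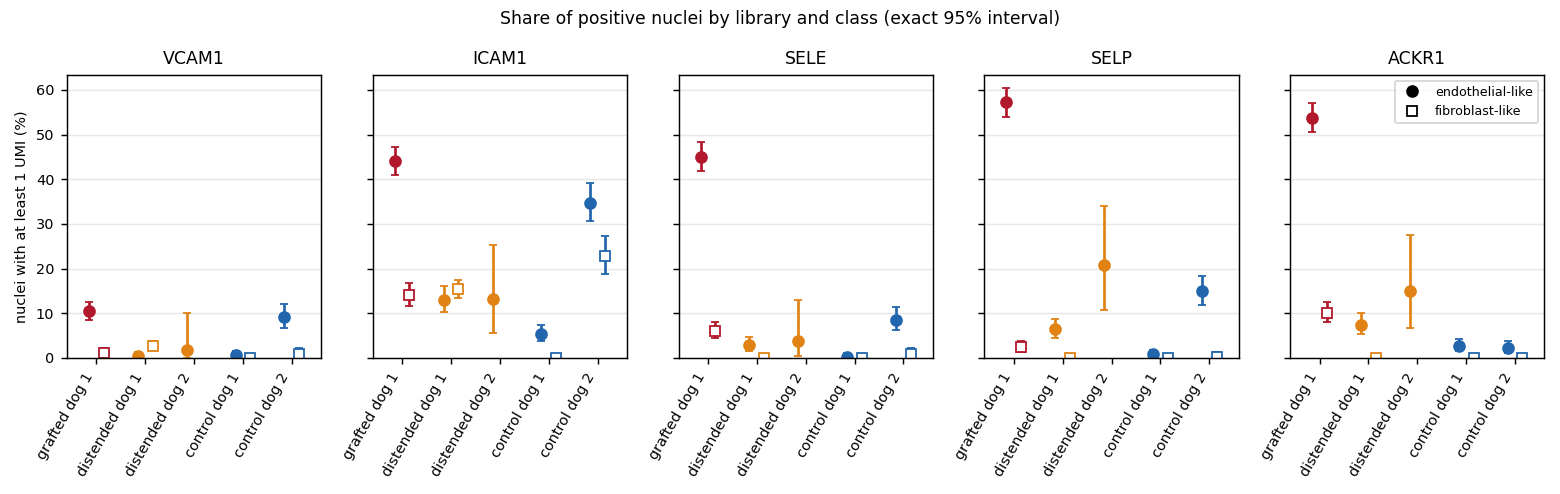
Share of nuclei with at least 1 UMI of each gene (percent, linear axis) in endothelial-like (filled circles) and fibroblast-like nuclei (open squares), with exact 95% intervals for shares above 0; classes under 20 nuclei are not drawn. In distended dog 1 the fibroblast-like share lies above the endothelial-like one for ICAM1 (15.4% and 13%) and VCAM1 (2.64% and 0.356%).

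Grafted nuclei were deeper, and at equal depth the order of libraries changed. With each endothelial-like nucleus thinned to 200 UMIs outside the 2 features, ICAM1 was expected in 5.82% of nuclei in the graft, 4.44% and 4.04% in distended dogs 1 and 2, and 1.88% and 26.6% in control dogs 1 and 2. VCAM1 was expected in 0.990% in the graft, 0.150% and 0.0911% in the distended veins, and 0.276% and 6.69% in control dogs 1 and 2. For SELE the thinned shares were 10.9% in the graft and 7.83% in control dog 2, and for SELP 10.2% and 10.5%. Thinning left out 19 nuclei of distended dog 1, 66 of control dog 1, 114 of control dog 2 and 0 of the graft and of distended dog 2. The thinned ACKR1 share was 4.81% in the graft, 2.20% and 2.13% in distended dogs 1 and 2, and 0.754% and 1.13% in control dogs 1 and 2. The endothelial-like nuclei of the graft thus stayed above those of the other libraries for ACKR1 and SELE. Thinned alike, the ACKR1 share in the graft was 4.05% in the 37 smooth muscle-like and 1.36% in the fibroblast-like nuclei. Transcripts from outside a nucleus were not removed, and their part in these shares was not tested.

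Most ACKR1 lay in cluster 7, which was led by ribosomal protein genes. It stayed unnamed by the limits used here, with 3 endothelial and 2 B or plasma cell markers. Being unnamed does not show that these nuclei lay outside the endothelium. The cluster held 262 nuclei of the graft, 3 and 9 of distended dogs 1 and 2, and 11 and 1 of control dogs 1 and 2. It held 19467 of 20735 ACKR1 UMIs in the graft, 16 of 98 and 394 of 415 in distended dogs 1 and 2, and 96 of 115 and 0 of 11 in control dogs 1 and 2. In the graft 88.9% (84.5 to 92.5) of its nuclei were positive, with a mean of 83.6 ACKR1 UMIs, against 1.95 in positive endothelial-like nuclei. Members were left out of the genes used for clustering, but the clusters were still made from the same nuclei, so these values describe cluster 7 and were not tested.

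Cluster 7 held the selectins as well. In the graft it had 4323 of 7421 SELP UMIs and 3604 of 6955 SELE UMIs, with 67.2% and 63.4% of its nuclei positive. It also held 985 ICAM1 and 140 VCAM1 UMIs, with 60.7% and 17.9% positive. Of its 262 grafted nuclei 86 held 4 and 38 held all 5 of the genes, whereas 111 and 21 of the 928 grafted endothelial-like nuclei did. In control dog 1, 9 of 11 nuclei of cluster 7 held SELP and 10 held ACKR1, but none held SELE.

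**Figure D3:**
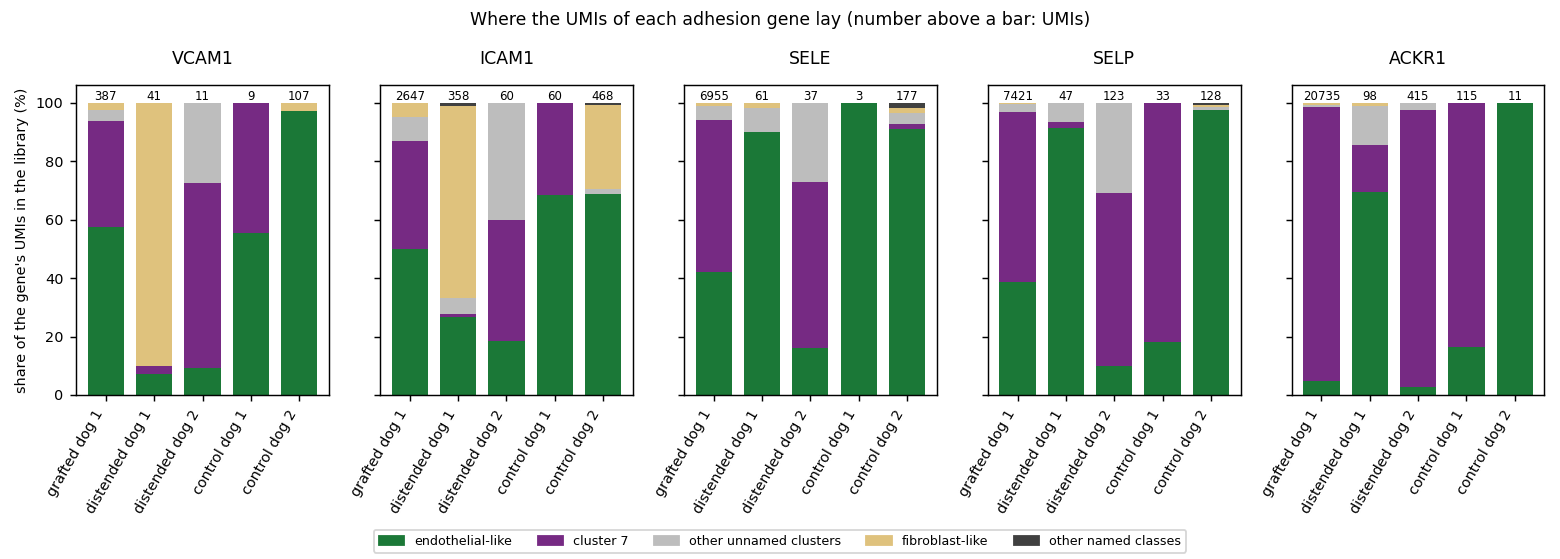
Percent of each gene's UMIs per library that lay in endothelial-like nuclei, cluster 7, other unnamed clusters, fibroblast-like nuclei and other named classes; the number above each bar is the gene's UMIs. Cluster 7 takes most ACKR1 in the graft, distended dog 2 and control dog 1, and fibroblast-like nuclei take most ICAM1 and VCAM1 in distended dog 1.

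Cluster 7 stood apart in depth and content. Its grafted nuclei had a median of 5256.5 UMIs, and ribosomal protein transcripts took 17.7% of their UMIs, against 0.676% in grafted endothelial-like nuclei. All 20 endothelial markers were detected in these nuclei, at a summed 5152 CPM, against 8658 in grafted endothelial-like nuclei. PECAM1 and PLVAP stood at 979 and 340 CPM, above 602 and 12.7 in grafted endothelial-like nuclei, whereas VWF, EMCN, CDH5 and FLT1 stood lower. B or plasma cell markers were at 17.7, against 25.1 in grafted endothelial-like nuclei, and erythroid markers at 0.902. The part of depth in the ACKR1 level was not tested. Outside cluster 7 and the endothelial-like class, grafted nuclei held ACKR1 at shares of 10.2% in fibroblast-like, 18.9% in the 37 smooth muscle-like nuclei, 15.2% in cluster 10, 18.2% in the mixed leukocyte cluster 12 and 14.4% in cluster 14. There were 4.50 ACKR1 UMIs per SELP UMI in cluster 7, 5.14 in fibroblast-like and 0.339 in endothelial-like nuclei of the graft.

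Within grafted endothelial-like nuclei of like depth, SELP was found in a larger share of SELE-positive than of SELE-negative nuclei in each of 4 depth classes. Of 928 grafted endothelial-like nuclei 98 held none of the 5 genes, 222 held 1, 245 held 2 and 231 held 3. In the shallowest 231 of them (562 to 2689 UMIs) SELP was found in 45.3% of SELE-positive and 26.2% of SELE-negative nuclei. In the deepest 232 (5789 to 23915 UMIs) the shares were 81.1% and 68.2%. In control dog 2, 28 of 43 SELE-positive nuclei held ICAM1. VCAM1 was found there in 0% of ICAM1-positive and 5.88% of ICAM1-negative endothelial-like nuclei among the shallowest 125. In the deeper classes of control dog 2, in order of depth, the shares were 10.8% and 2.25%, 17.5% and 4.35%, and 20.7% and 13.2%. In the graft the VCAM1 share was larger in ICAM1-positive nuclei in each of 4 depth classes. Nuclei of 1 library are not replicates, and these are descriptions.

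Endothelial-like sums were tested in the same way, with levels as CPM after TMM scaling. In distended against control vein 11 of 10299 genes were called (0.107%), 1 of them a member. VCAM1 stood at 3.45 and 5.67 CPM in distended dogs 1 and 2, from 3 and 1 UMIs, and at 7.05 and 318 CPM in control dogs 1 and 2. Both distended libraries thus lay below both controls after TMM scaling. As CPM of the UMIs outside the 2 dominant features, without TMM, VCAM1 stood at 6.47 and 14.5 in distended dogs 1 and 2. The controls stood at 13.1 and 560 on that scale, so the groups overlapped. VCAM1 fell by 5.31 on the log2 scale (SE 0.95, adjusted p 5.5e-05, edgeR), with a spread mostly pooled over all genes. It had 104 UMIs in control dog 2 and 5 in control dog 1, and the value was -0.83 (adjusted p 1.0) without control dog 2 and -3.45 (adjusted p 0.82) with the dog as a replicate block. It was called in 5 of the 16 alternatives in which it was tested (adjusted p from 4.2e-05 to 1.0), and DESeq2 gave an adjusted p of 0.82.

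The other members were not called in that comparison. ICAM1 stood at 110.4 and 62.4 CPM in distended dogs 1 and 2 and 57.8 and 986 CPM in control dogs 1 and 2 (log2 fold change -2.55, SE 0.81, adjusted p 0.44 in edgeR). SELE stood at 63.3 and 34.0 CPM in distended dogs 1 and 2 and 4.23 and 493 CPM in control dogs 1 and 2 (-2.27, SE 0.79, adjusted p 0.73), and SELP at 49.5 and 68.1 CPM against 8.47 and 383 CPM (-1.74, SE 0.77, adjusted p 1.0). ACKR1 stood at 78.2 and 62.4 CPM in distended dogs 1 and 2 and at 26.8 and 33.7 CPM in control dogs 1 and 2 (1.25, SE 0.70, adjusted p 1.0), so that the groups did not overlap. The share of all genes whose groups did not overlap in this comparison was not counted, so ACKR1 and VCAM1 are given as values. Within dog 1 ICAM1, SELE and SELP were 1.91, 14.9 and 5.84 times as high in distended as in control vein. Within dog 2 the same ratios were 0.0633, 0.0691 and 0.178, the opposite direction. Without control dog 2 the fitted log2 fold changes turned to 0.61, 3.56 and 2.75. Summed erythroid markers moved with that library. As CPM of the UMIs outside the 2 dominant features, without TMM scaling, they stood at 2.16 and 0 in endothelial-like nuclei of distended dogs 1 and 2 and at 2.61 and 948 in those of control dogs 1 and 2, with 7, 8, 7 and 1 of the 8 markers at 0. Their part in the result was not tested.

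In grafted against control endothelial-like sums 661 of 10299 genes were called (6.42%), and VCAM1 was again the member called. It stood at 24.6 CPM in the graft, between 7.05 and 318 CPM in control dogs 1 and 2, and fell by 2.69 on the log2 scale (SE 0.90, adjusted p 0.049, edgeR). The value turned to 1.83 (adjusted p 0.63) without control dog 2 and to 0.84 (adjusted p 0.81) with the replicate block, and it was -3.71 (adjusted p 0.051) without control dog 1. SELE stood at 324 CPM in the graft and 4.23 and 493 CPM in control dogs 1 and 2 (log2 fold change 0.40, SE 0.88, adjusted p 0.87), and SELP at 316 CPM against 8.47 and 383 CPM (0.72, SE 0.85, adjusted p 0.73). Against control dog 1 alone the log2 fold changes of SELE and SELP were 6.27 and 5.25. These values compare 1 grafted with 1 control library, not the conditions. ACKR1 stood at 107 CPM in the graft, above 26.8 and 33.7 CPM in control dogs 1 and 2 (1.84, SE 0.77, adjusted p 0.14), and ICAM1 at 146 CPM, between 57.8 and 986 CPM (-1.83, SE 1.00, adjusted p 0.31). Platelets also hold P-selectin, and summed platelet or megakaryocyte markers in endothelial-like nuclei, on the scale without TMM, stood at 134 in the graft, 64.7 and 0 in distended dogs 1 and 2, and 13.1 and 32.3 in control dogs 1 and 2. Neutrophil markers stood at 85.5 in the graft, 8.62 and 174 in distended dogs 1 and 2, and 7.84 and 32.3 in control dogs 1 and 2. Of 9 platelet or megakaryocyte markers listed 7 were found and 2 of them were at 0 in the graft, and of 12 neutrophil markers 11 were found and 1 was at 0. Their part in the results was not tested.

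In grafted against distended endothelial-like sums 259 of 10299 genes were called (2.51%), none of them a member. All 5 genes were higher in the graft than in both distended libraries. Of all 10299 genes 53.8% had a log2 fold change above 0. The share of all genes above both distended libraries was not counted, so the members are given as values. VCAM1 stood at 24.6 CPM in the graft and 3.45 and 5.67 CPM in distended dogs 1 and 2 (log2 fold change 2.62, SE 1.02, adjusted p 0.19, edgeR). SELE stood at 324 CPM in the graft and 63.3 and 34.0 CPM in distended dogs 1 and 2 (2.67, SE 0.88, adjusted p 0.080), and SELP at 316 CPM against 49.5 and 68.1 CPM (2.46, SE 0.87, adjusted p 0.12). With the dog as a replicate block these 3 genes were called higher in edgeR. VCAM1 stood at 4.28 (adjusted p 0.017), SELE at 3.27 (adjusted p 0.037) and SELP at 3.45 (adjusted p 0.025). In that fit 97 of 10299 genes were called higher and 84 lower. The block takes the difference between the dogs as equal in every group. Between distended and control vein, SELE and SELP ran in opposite directions in the 2 dogs, so these calls rest on a block that these genes do not meet. ICAM1 and ACKR1 stood at 146 and 107 CPM in the graft, with log2 fold changes of 0.72 (SE 0.91, adjusted p 0.87) and 0.59 (SE 0.77, adjusted p 0.88). The 3 comparisons share libraries, so their values are not independent.

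**Figure D4:**
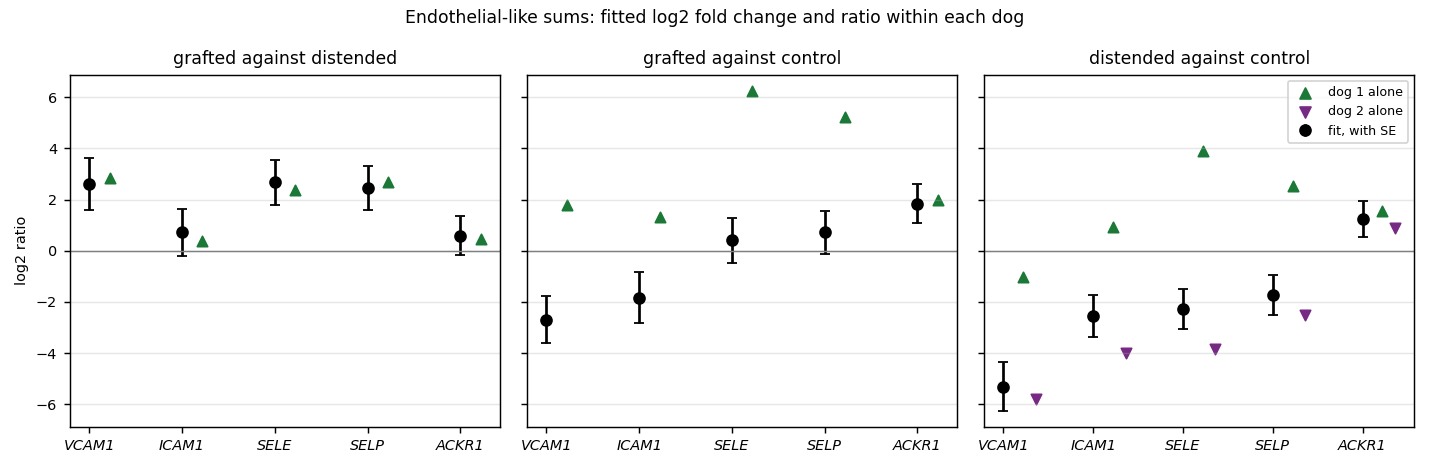
Log2 fold change of each gene in endothelial-like sums from the fit over all libraries (black, bars are SE) and log2 ratio of CPM within dog 1 (up triangles) and dog 2 (down triangles), for 3 comparisons. In distended against control vein ICAM1, SELE and SELP lie above 0 in dog 1 and below 0 in dog 2.

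With cluster 6, led by DACH1 among others, and cluster 7 joined to the endothelial-like class, the fitted log2 value for ACKR1 was 3.97 (adjusted p 0.50, edgeR) in grafted against control and 2.87 (adjusted p 1.0) in distended against control sums, against 1.84 and 1.25 without them. VCAM1 was then not called in either comparison (adjusted p 0.57 and 1.0). In this setting 0 of 10809 genes were called in each, so the lost call is not particular to VCAM1.

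Fibroblast-like sums rest on 1 grafted, 1 distended (dog 1) and 2 control libraries, so the 2 controls alone supplied the spread, and a p for grafted against distended sums compares 2 libraries, not the conditions. Different clusters made up the class. Cluster 15 held all but 5 of its 767 nuclei in the graft, clusters 5 and 13 held 552 and 549 of 1210 in distended dog 1, and clusters 4 and 5 held 276 and 85 of 386 in control dog 2. Summed fibroblast markers, on the scale without TMM, stood at 3361 in the graft, 13726 in distended dog 1, and 9752 and 11428 in control dogs 1 and 2. Of the 5 genes 4 were tested, and SELP, with 21 UMIs in the graft, 0 in distended dog 1 and 0 and 1 in control dogs 1 and 2, did not pass the filter on low counts. In grafted against distended sums 2292 of 10222 genes were called (22.4%) and DESeq2 called 25, so the 3 of 4 tested members among edgeR's calls are given as values of these 2 libraries. VCAM1 had 9 UMIs in the graft and 37 in distended dog 1, or 2.24 and 25.7 CPM (log2 fold change -3.47, SE 0.69, adjusted p 1.6e-05, edgeR). SELE had 60 UMIs in the graft and 1 in distended dog 1 (adjusted p 0.0045), and ACKR1 had 108 and 1 (adjusted p 2.2e-05), both higher in the graft. At resolution 1.5 none of the 3 was called (adjusted p 0.23 for VCAM1, 0.31 for SELE and 0.0997 for ACKR1), and each was called in 3 of the alternatives in which it was tested. ICAM1 stood at 30.6 CPM in the graft and 163 CPM in distended dog 1 (-2.41, SE 1.52, adjusted p 0.27).

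Against control fibroblast-like sums no member was called. In grafted against control sums 331 of 10222 genes were called (3.24%), and in distended against control sums 2 of 10222 (0.0196%). ICAM1 had 123 UMIs in the graft and 0 and 135 in control dogs 1 and 2, where it stood at 30.6, 0 and 653 CPM (log2 fold change -3.54, SE 1.52, adjusted p 0.23, edgeR). Control dog 1, with 49 fibroblast-like nuclei at a median of 151 UMIs, held no UMI of any of the 5 genes, a depth at which a low level was not detectable.

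The calls among genes that work with these molecules are set against 6.42% of all genes called in grafted against control endothelial-like sums. Of 17 tested among 25 other endothelial adhesion and transmigration receptors, 0 rose and 1 fell in grafted against control sums, with a median log2 fold change of -1.02 against 0.13 for all genes tested. The one that fell was PODXL, a sialomucin of the endothelial surface, at 9.71 CPM in the graft and 83.2 and 64.3 CPM in control dogs 1 and 2 (adjusted p 0.027, edgeR). Of 7 tested among 25 chemokines and atypical chemokine receptors, 1 rose and 0 fell (median 1.27), the neutrophil chemoattractant CXCL8, with 659 UMIs in the graft and 0 and 3 in control dogs 1 and 2 (adjusted p 0.0011). Of 5 tested among 14 leukocyte counter-receptors and 15 among 17 membrane anchors and cytoplasmic partners, none was called (medians 0.31 and 0.15).

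Weibel-Palade body genes, the storage compartment of P-selectin, had 14 of 17 members tested, of which 2 rose and 0 fell in grafted against control sums (median -0.01), where 6.42% of all genes were called. ANGPT2, a ligand of the TEK receptor, had 728 UMIs in the graft and 0 and 1 in control dogs 1 and 2 (adjusted p 5.1e-05, edgeR). IGFBP7 stood at 276 CPM in the graft and 42.3 and 21.4 CPM in control dogs 1 and 2 (log2 fold change 3.07, SE 0.80, adjusted p 0.0055). MYRIP, a linker of granules to the cytoskeleton, stood at 159 CPM in the graft and 1490 and 1341 CPM in control dogs 1 and 2, which did not pass the test (adjusted p 0.11). Of 5 tested among 10 glycosyltransferases of selectin ligands 1 rose, ST3GAL6, with 362 UMIs in the graft and 0 in both controls (adjusted p 0.00043).

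Inducing cytokines, their receptors and NF-kB factors had 25 of 33 members tested, of which 0 rose and 2 fell in grafted against control sums (median -0.24), again beside 6.42% of all genes. With so few genes a list, these counts set no list apart. JUN stood at 8.93 CPM in the graft and 205 and 1690 CPM in control dogs 1 and 2 (adjusted p 0.00043, edgeR). IRF1, a transcription factor induced by interferon, stood at 7.72 CPM in the graft and 2.82 and 217 CPM in control dogs 1 and 2 (adjusted p 0.0051). NFKBIA, the NF-kB inhibitor that NF-kB itself induces, stood at 264 CPM in the graft, 385 and 159 CPM in distended dogs 1 and 2, and 388 and 1252 CPM in control dogs 1 and 2. These 3 genes were thus highest in control dog 2, the library with the highest VCAM1 and ICAM1, and their part in that was not tested. Of 8 tested among 12 venous endothelial genes 0 rose and 2 fell (median -0.77), NR2F2 and SELENOP, at 30.3 and 22.4 CPM in the graft.

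In distended against control endothelial-like sums the 8 lists held 1 call, beside 0.107% of all genes. This was IRF1, which fell (adjusted p 0.016, edgeR), at 11.5 and 0 CPM in distended dogs 1 and 2 and 2.82 and 217 CPM in control dogs 1 and 2. List medians lay between -0.30 and 0.15, against -0.02 for all genes tested. In grafted against distended sums, where 2.51% of all genes were called, they held 3 calls: ANGPT2 rose (adjusted p 0.0037), and JUN (adjusted p 0.0039) and SELENOP (adjusted p 0.033) fell. List medians there lay between -0.88 and 1.15, against 0.11 for all genes.

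Over 27 sums of a library and a class or cluster, ACKR1 was most like DYNLL1, SSR4 and SLC35B1 (Pearson r 0.90, 0.90 and 0.88 among 8583 genes). SELP was most like MMD, CLU and PROCR (0.77, 0.77 and 0.76), and SELE most like TNFRSF21, PTK2B and RPN2 (0.76, 0.72 and 0.72). VCAM1 was most like CHMP4A, IL12RB2 and OSER1 (0.70, 0.69 and 0.68), and ICAM1 most like CDON, SPG7 and NAP1L4 (0.75, 0.75 and 0.74). Among the members themselves r was highest for SELE with SELP (0.70) and SELP with ACKR1 (0.69), and lowest for VCAM1 with ACKR1 (0.40). ACKR1 stood at 5851 CPM in the sum of grafted cluster 7 and at 228 or below in the others, and r without that sum was not computed. The sums share libraries and depth, and these values are descriptions.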

How the data were processed

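Nuclei of 5 libraries were profiled with droplet 3′ chemistry per the labels' protocols. The deposited matrices hold raw UMI counts by gene and nucleus barcode, which the authors produced using Cell Ranger 7.0.0, per the submitters' processing notes. Their genome build: not given in the sources used here. No coordinates are printed. Features naming no gene (24) held 0.588% to 11.5% of UMIs and were left out. The 13 mitochondrial protein genes held 0 UMIs. The members and all lists were chosen with earlier results of these data known.

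Nuclei with at least 100 detected genes were kept. Counts scaled to 10000 per nucleus and log-transformed gave 18 Leiden clusters at resolution 0.8 in scanpy 1.11.5 (2000 variable genes without the members, 20 components, 15 neighbours, no batch integration). Clusters were named from 16 marker lists by limits set after the data were seen: at least 3 markers, each at 3 or more UMIs and 2 times the other clusters, and a lead of 2 over the next list. Scrublet marked 25 nuclei (0.365%), too few for a working caller; doublets were kept. Transcripts from outside a nucleus were not removed.

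UMIs were summed per library over all nuclei or a class with at least 20 nuclei, and tested two-sided with edgeR 4.0.16 in R 4.3.3 (TMM, filterByExpr, glmQLFit, all groups in one fit) with Benjamini-Hochberg adjustment at 0.05 over all genes tested. The distended against control test in whole vein and endothelial-like sums was checked on simulated data. The simulation gave libraries of a group the same expected share of each gene and did not score the grafted comparisons. It thus does not check those, nor controls that differ as these do. Named list genes are those past 0.05, and at most 3 per list and comparison with the largest change among those whose groups do not overlap. The labels give the same dog to same-numbered libraries. Deviations of control and distended libraries of a dog correlated at -0.28 in whole vein and -0.03 in endothelial-like sums. Alternatives were DESeq2 1.42.0, no filter, the block, leaving out each library, other clusterings and thinning. Intervals are exact Clopper-Pearson; the limit of a share of 0 is 3 nuclei. Both cover counting error only. P-values measure the spread between these libraries as edgeR pooled it over genes. Its median prior degrees of freedom were 7.31 in whole vein, 403 in endothelial-like and infinite in fibroblast-like sums. In the class sums a gene's own spread, such as that of VCAM1 between the controls, thus counted little.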

Additional observations from a re-analysis of the deposited data

Results flagged for a closer look

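VCAM1 and ICAM1 lay on opposite sides of the other group in endothelial-like and fibroblast-like sums, and the difference between the classes was not tested. In grafted against distended vein both genes stood higher in the grafted library than in both distended libraries in endothelial-like sums, and lower than in the distended library in fibroblast-like sums. The log2 fold change of the endothelial-like class minus that of the fibroblast-like class was 6.09 for VCAM1 and 3.13 for ICAM1. ICAM1 was called in neither class (edgeR adjusted p 0.87 and 0.27) and VCAM1 not in endothelial-like sums (adjusted p 0.19). In distended against control vein, after TMM scaling, VCAM1 lay below both controls in endothelial-like and above both in fibroblast-like sums, a difference of -6.35. The endothelial-like order rests on 3 and 1 UMIs in distended dogs 1 and 2 and did not hold without TMM. The endothelial-like term of VCAM1, -5.31, was -0.83 without control dog 2. Its fibroblast-like term rests on 37 UMIs in distended dog 1 and 0 and 3 in control dogs 1 and 2. Fibroblast-like sums hold 1 grafted and 1 distended library, made up of different clusters.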

How the results depend on the processing

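Counts of genes called are given for distended against control, grafted against control and grafted against distended sums, in that order. In whole vein they were 1, 117 and 31 with DESeq2 and 11, 287 and 144 with no filter on low counts, against 0 in each. In endothelial-like sums (11, 661 and 259) they were 1, 142 and 28 with DESeq2, 0, 360 and 119 with at least 200 genes per nucleus, 0, 251 and 64 with the dominant features left out before scaling, 0, 296 and 105 with the members kept in clustering, 0, 0 and 0 with nuclei classed singly, 0, 3 and 1 at resolution 0.4 and 0, 238 and 82 at resolution 1.5. With the dominant features left out of clustering the first 2 were 4 and 407. Among alternatives chosen after seeing the data, they were 0, 159 and 50 with cluster 0 left out and 0, 0 and 0 with clusters 6 and 7 added. In fibroblast-like sums (2, 331 and 2292) they were 0, 45 and 25 with DESeq2, 0, 25 and 433 with at least 200 genes, 0, 121 and 170 with the dominant features left out of clustering, 0, 107 and 124 with nuclei classed singly and 0, 157 and 192 at resolution 0.4. The first 2 were 1 and 189 with no filter, and the last 2 were 176 and 191 with the members kept and 153 and 190 at resolution 1.5. With the replicate block, distended against control endothelial-like sums gave 3 calls; the crossed pairing of dogs, chosen after seeing the data, gave 9 in whole vein.

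With each library left out in turn, the counts ran from 0 to 219, 0 to 646 and 0 to 432 in whole vein and from 0 to 126, 199 to 1117 and 11 to 591 in endothelial-like sums; in fibroblast-like sums the one such fit gave 1 and 267 for the first 2. Left-out ranges of log2 fold changes that crossed 0 were, in distended against control whole vein, -3.30 to 0.81 for VCAM1, -2.62 to 0.88 for ICAM1, -2.71 to 3.72 for SELE, -2.83 to 1.69 for SELP and -0.998 to 4.47 for ACKR1. They were -3.23 to 0.88 for VCAM1 and -2.58 to 0.91 for ICAM1 in grafted against control whole vein, and -0.12 to 0.24 and -0.11 to 0.20 in grafted against distended whole vein. In endothelial-like sums they were -3.46 to 0.61 for ICAM1, -3.26 to 3.56 for SELE and -2.71 to 2.75 for SELP in distended against control, and -3.71 to 1.83 for VCAM1, -2.78 to 1.36 for ICAM1, -0.63 to 6.27 for SELE and -0.30 to 5.25 for SELP in grafted against control.

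Other reversals in distended against control endothelial-like sums were SELE 0.95, SELP 0.45 and ACKR1 -0.26 with the dominant features left out of clustering. At resolution 0.4 they were ICAM1 0.24, SELE 11.25 and SELP 0.35, and ICAM1 in grafted against control was 0.43. Control dog 2 had under 20 endothelial-like nuclei at that resolution, so this fit was also one without control dog 2. Control dog 1 there summed to 232485 UMIs, against 1497195 in the main setting. The replicate block gave 0.84 for VCAM1 in grafted against control endothelial-like sums and 0.052 for SELE in distended against control whole vein. DESeq2 gave -0.0053 for ICAM1 in grafted against distended whole vein and -1.73 for ACKR1 in distended against control fibroblast-like sums. At least 200 genes per nucleus gave 4.86 for VCAM1 in grafted against control fibroblast-like sums. By the limit of 20 nuclei that fit lacked control dog 1 and held distended dog 2. The cause was not tested. The share order of 23 of 25 pairs was 22 or 23 in every setting run. These counts include the pairs of distended dog 2 and control dog 1, where no fibroblast-like nucleus was positive in the main setting. Shallow control nuclei and 53 endothelial-like nuclei in distended dog 2 limit what low levels can show.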
